A study of Rattus norvegicus with 65 samples.

Results

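Hypothalamic gene expression was compared between animals treated with Roux-en-Y gastric bypass (RYGB) and animals given saline only, over all genes. The comparison used 14 RYGB-treated and 8 saline-treated animals, 22 of the 65 libraries of the series, with 1 library per animal. Their group and batch were taken from the sample labels. All were adult male Wistar rats, 9 to 10 weeks old at the start, that ate a high-fat diet for 6 weeks before the intervention. RYGB-treated animals had a small gastric pouch connected to the small intestine, were given an analgesic, and chose freely between high- and low-fat food from postoperative day 3. Saline-treated animals had no abdominal operation, received isotonic saline by injection and by an implanted minipump, and had the same free choice of food. Effects of the bypass and of abdominal surgery itself cannot be told apart between these groups. Whole hypothalami were collected 4 weeks after the intervention following 10 h of fasting. The experiments ran in 2 periods, named A and B in the labels. The first held 11 RYGB-treated and 3 saline-treated animals and the second 3 and 5, so that each batch was dominated by 1 of the groups.

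The hypothalamus adjusts food intake and energy use to signals from the gut, fat tissue and blood. In the arcuate nucleus, neurons making Agrp and Npy drive feeding and neurons making Pomc and Cartpt curb it, and both act on cells that carry the melanocortin receptors Mc3r and Mc4r. Neurons of the lateral hypothalamus make orexin (Hcrt), which promotes wakefulness and feeding, and melanin-concentrating hormone (Pmch), which promotes feeding. The thalamus lies above this tissue, with the habenula beyond it, and the dopamine neurons of the midbrain lie behind.

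Total counts per library lay between 25913006 and 36539941 in RYGB-treated and between 27080676 and 30401702 in saline-treated animals of batch A. In batch B they lay between 25378876 and 26975421 and between 20622249 and 24974404, respectively. The labelled tissue was checked with 19 genes of hypothalamic neurons, whose summed level ran from 626 to 6266 counts per 1000000 (CPM) in RYGB-treated animals, with a median of 2129. In saline-treated animals it ran from 31.4 to 5413 CPM with a median of 1102. Saline replicate 3 (237 CPM) and saline replicate 4 (31.4 CPM) lay below all other libraries, and 5 of the 19 markers were at 0 in saline replicate 4. Markers of cortex, hippocampus and amygdala were highest in saline replicate 4 (1437 CPM) and RYGB replicate 6 (1370 CPM), against a median of 200 CPM in RYGB-treated and 244 CPM in saline-treated animals. RYGB replicate 6 also held the most choroid plexus RNA (3782 CPM). The part of these libraries in the results was not tested beyond the fits without them given below. In such bulk tissue, fewer cells of a type and less RNA per cell cannot be told apart.

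Among 21871 genes tested, 1 gene passed the test between RYGB- and saline-treated animals. No gene was upregulated (0% of the genes tested) and 1 was downregulated (0.00457%), at a Benjamini-Hochberg adjusted p under 0.05 with edgeR's quasi-likelihood test and a fold change over 1 on the log2 scale. The gene was Gpr151, an orphan G protein-coupled receptor known for its expression in habenular neurons. At an unadjusted p under 0.05, 248 genes were higher (1.13% of the genes tested) and 208 were lower (0.951%) in RYGB-treated animals. The median absolute log2 fold change of all genes was 0.108, with a median SE of 0.18. Detection was checked in data simulated with 1 mean per gene for all libraries, so without batch differences. Each gene was drawn on its own, with 200 genes changed, so differences between animals shared by many genes were absent. At an adjusted p under 0.05, without the fold threshold, the test recovered 62% of genes changed by 1 on the log2 scale. For genes changed by 2 it recovered 89.5%. These shares do not hold for the call used above, which also needed the fold threshold, nor for data with such shared differences.

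Gpr151 lies on chromosome 18 (chr18:36892403-36893797 of Rnor_6.0, minus strand). Its normalized counts in saline replicates 1 to 8 were 2.51, 1.71, 3.9, 0, 1193, 8.96, 2431 and 2.75. In RYGB-treated animals they lay between 0 and 8.09, with a median of 1.15. The 2 high values belonged to saline replicates 5 and 7 of batch B, and the other saline-treated animals lay within or close to the range of the RYGB-treated group. The log2 fold change was -7.02 ± 1.34 (SE, adjusted p = 0.0472, edgeR). Without saline replicates 5 and 7 it was -0.75 (adjusted p = 1), and the call was lost. In batch A alone it was -0.22 (adjusted p = 1), and in batch B alone -8.63 (adjusted p = 0.0957). The call was also lost without saline replicate 5 (adjusted p = 0.125) or saline replicate 7 (adjusted p = 0.569) alone, and in 12 of the 14 fits that left out 1 RYGB-treated animal, with adjusted p between 0.057 and 0.26.

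The same 2 animals carried other genes of the medial habenula, a small nucleus that signals to the midbrain through cholinergic neurons. Chrna3 and Chrnb4, which code for subunits of 1 nicotinic acetylcholine receptor, are neighbours on chromosome 8 (chr8:59594007-59607122 and chr8:59610489-59629073 of Rnor_6.0, minus strand). Their promoters, of 300 bases each, are shown because both genes were high in the same animals. The sequences were taken from RefSeq (GRCr8, chr8:64311202-64311501 and chr8:64333060-64333359, minus strand) and run from 250 bases before to 50 bases after the start of each gene. Capitals mark the GC box GGGCGG, or CCGCCC where it lies on the other strand.
Chrna3: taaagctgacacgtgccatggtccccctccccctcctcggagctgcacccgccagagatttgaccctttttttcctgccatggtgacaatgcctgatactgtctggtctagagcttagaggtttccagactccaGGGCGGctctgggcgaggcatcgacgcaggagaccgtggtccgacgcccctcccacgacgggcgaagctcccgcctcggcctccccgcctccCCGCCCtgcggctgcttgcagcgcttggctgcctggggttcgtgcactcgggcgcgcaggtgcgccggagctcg
Chrnb4: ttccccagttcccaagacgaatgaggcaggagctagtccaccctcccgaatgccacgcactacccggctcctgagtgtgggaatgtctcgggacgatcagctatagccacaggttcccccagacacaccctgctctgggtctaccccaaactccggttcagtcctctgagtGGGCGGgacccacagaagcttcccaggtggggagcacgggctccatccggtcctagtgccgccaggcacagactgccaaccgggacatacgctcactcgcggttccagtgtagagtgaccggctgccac
The Chrna3 promoter held 2 of these motifs, starting 116 and 24 bases upstream, and the Chrnb4 promoter held 1, starting 79 bases upstream. On either strand, the same 6 letters occurred in 33.1% of the 33469 promoters of this length.

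Chrna3 had normalized counts of 18.4, 19.6, 19.5, 26.2, 716, 16.8, 1212 and 33 in saline replicates 1 to 8. RYGB-treated animals lay between 6.91 and 85.4. Only saline replicates 5 and 7 stood above the RYGB-treated range. Chrnb4 showed the same 2 animals at 186 and 241, against 3.57 to 21.4 in the other saline-treated and 0 to 27.1 in the RYGB-treated animals. Pou4f1, a transcription factor of habenular neurons, reached 353 and 810 in saline replicates 5 and 7 and no more than 3.35 elsewhere in the saline group. It ran from 0 to 21.1 in the RYGB-treated group. Nwd2, which codes for a protein with NACHT and WD repeat domains, was at 2336 and 4235 in these animals and at 1694 in saline replicate 4, against 314 to 731 in RYGB-treated animals. None of these genes passed the edgeR test. Their log2 fold changes were -2.85 ± 0.71 for Chrna3 (SE, adjusted p = 0.801), -2.71 ± 0.69 for Chrnb4 (adjusted p = 0.865), -4.24 ± 1.14 for Pou4f1 (adjusted p = 1) and -1.61 ± 0.34 for Nwd2 (adjusted p = 0.178). The serotonin receptor Htr5b (164 and 299 in the same animals, 5.21 to 42.1 in RYGB-treated animals) and the homeobox gene Lhx9 (763 and 1132, against 40.5 to 135) had the same pattern, with log2 fold changes of -2.25 ± 0.69 and -1.90 ± 0.62 (both adjusted p = 1).

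The summed level of 11 medial habenula genes, a list written after these values were seen, was 381 CPM in saline replicate 5, 594 in saline replicate 7 and 325 in saline replicate 8. It lay between 107 and 142 CPM in the other saline-treated animals and between 111 and 171 CPM in RYGB-treated animals. In saline replicate 8, unlike in saline replicates 5 and 7, Gpr151 (2.75), Chrna3 (33) and Pou4f1 (0) were low. That library instead had the highest level of striatum markers, 3544 CPM against a median of 804 in the saline group. The part of habenular tissue in the result for Gpr151 was not tested.

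**Figure D1:**
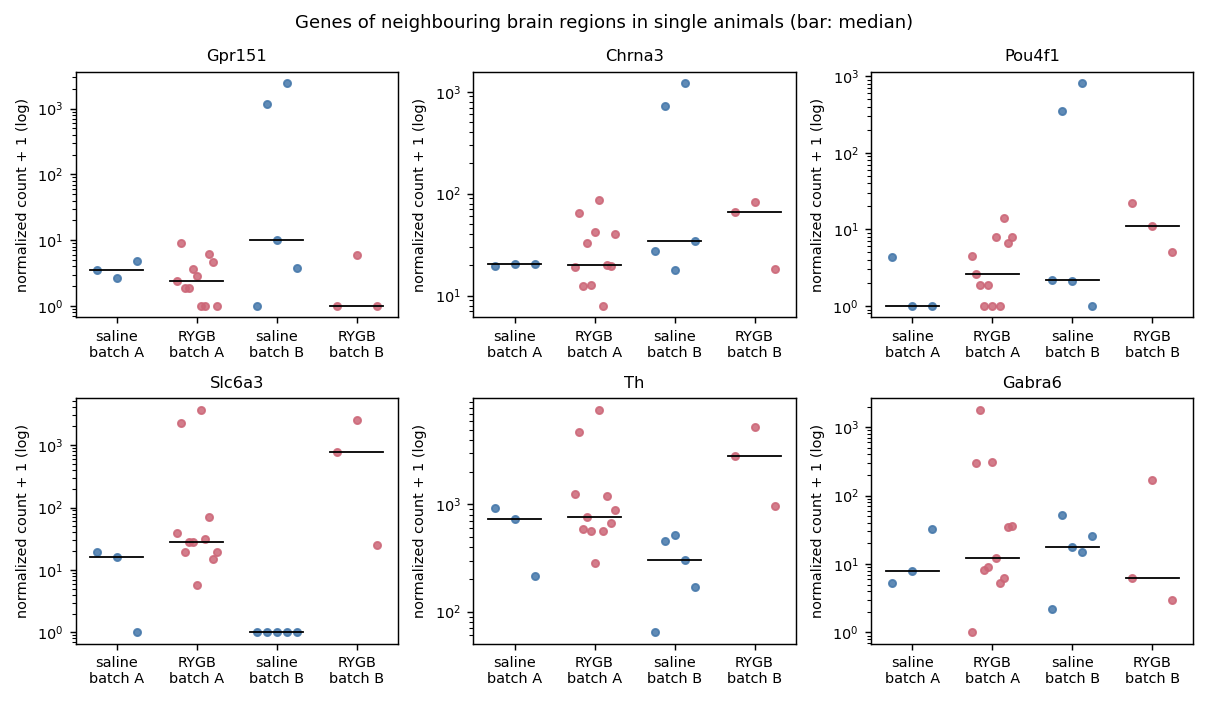
Normalized counts plus 1 (log axis) of Gpr151, Chrna3 and Pou4f1 (habenula), Slc6a3 and Th (dopamine neurons) and Gabra6 (cerebellum). Each point is 1 animal of the saline (blue) or RYGB (red) group in batch A or B, and the black bar is the median. Saline replicates 5 and 7 stand alone at the top for Gpr151 (1193 and 2431), and 4 RYGB-treated animals (766 to 3701) do so for Slc6a3.

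The largest positive difference among the named genes was that of Slc6a3, the dopamine transporter of midbrain neurons. Its normalized counts were 18.4 and 15.4 in saline replicates 1 and 2 and 0 in the other 6 saline-treated animals. In RYGB-treated animals they were 2226 in replicate 2, 3701 in replicate 7, 766 in replicate 12 and 2490 in replicate 13, and between 4.71 and 70.3 in the other 10. The log2 fold change was 7.10 ± 1.77 (SE, adjusted p = 0.801, edgeR). Th, the rate-limiting enzyme of dopamine synthesis, was at 4752, 7675, 2831 and 5262 in the same 4 animals. It ran from 286 to 1240 in the other RYGB-treated and from 63 to 934 in the saline-treated animals, with a log2 fold change of 2.18 ± 0.81 (adjusted p = 1). The midbrain transcription factors En1 (252, 418, 119 and 191 in these animals, up to 54.2 in the others and up to 17.9 in saline-treated animals) and Lmx1a (174, 281, 182 and 383, with 207 in RYGB replicate 11 and up to 75.6 in the others) were high there too. Their log2 fold changes were 2.87 ± 0.94 and 2.20 ± 0.76, both with an adjusted p of 1. Over 12 genes of midbrain dopamine neurons, a list also written after the values were seen, the summed level in these 4 animals ran from 249 to 701 CPM. The other RYGB-treated animals lay between 45.8 and 121 CPM and the saline-treated animals between 21.2 and 92.9 CPM.

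Cerebellar genes were high in some RYGB-treated animals, 2 of which (replicates 2 and 13) were also high in the dopamine genes. Gabra6, a GABA-A receptor subunit of cerebellar granule cells, reached 1803 in RYGB replicate 3 and 298, 305 and 168 in RYGB replicates 2, 6 and 13. It ran from 0 to 34.6 in the remaining RYGB-treated animals and from 1.19 to 50.4 in saline-treated animals (log2 fold change 3.24 ± 1.02, SE, adjusted p = 1, edgeR). Pcp2, a gene of Purkinje cells, was at 613 in RYGB replicate 3 and at most 20 in the saline group. The summed level of 12 cerebellar genes, a list also written after the values were seen, was 614 CPM in RYGB replicate 3. The medians were 170 and 149 CPM in the RYGB and saline groups. Meningeal markers were highest in the same library (4540 CPM, group median 441). Slc17a7, a vesicular glutamate transporter from the list of cortex markers, was at 28335 in saline replicate 4 and 16822 in RYGB replicate 6. It was at most 2825 in all other libraries (log2 fold change -2.75 ± 1.41, adjusted p = 1). Leaving out saline replicate 4 moved it to -0.59, and leaving out RYGB replicate 6 to -3.60.

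**Figure D2:**
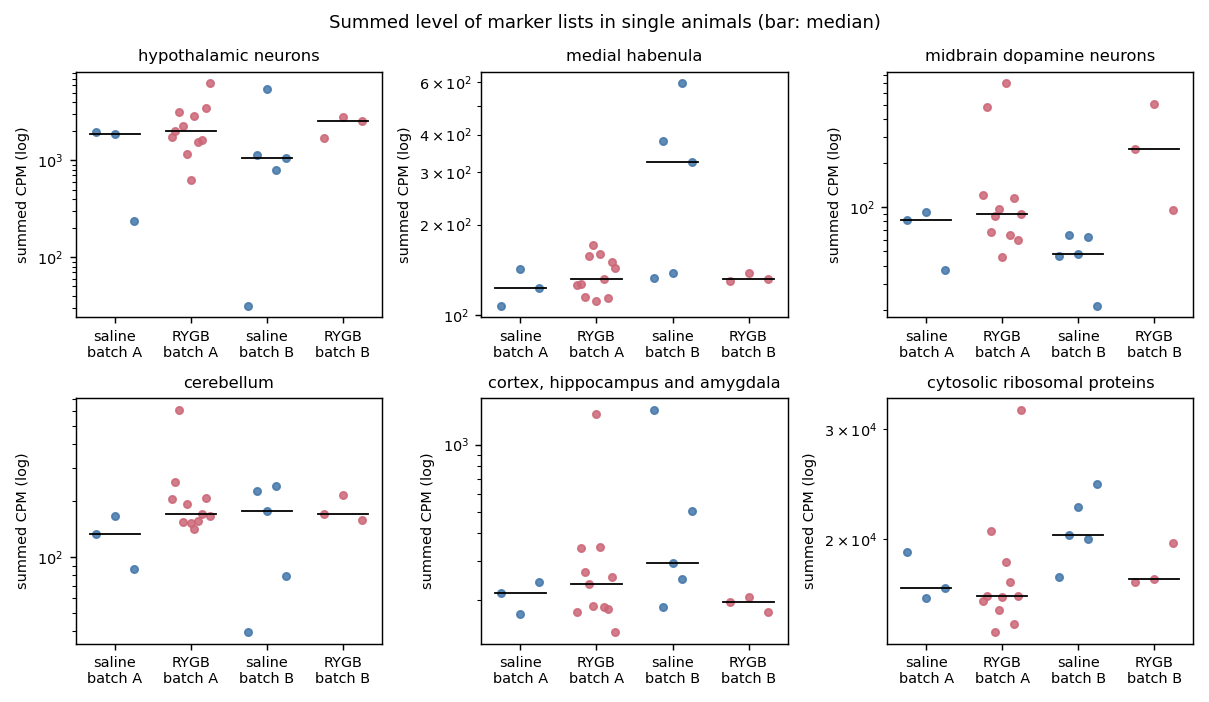
Summed level in CPM (log axis) of marker genes of hypothalamic neurons, medial habenula, midbrain dopamine neurons, cerebellum and cortex, and of cytosolic ribosomal proteins. Each point is 1 animal, by group and batch, and the black bar is the median. Saline replicates 3 and 4 lie lowest for hypothalamic neurons (237 and 31.4), saline replicates 5 and 7 highest for medial habenula (381 and 594), and RYGB replicate 11 highest for ribosomal proteins (32190).

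Of the feeding peptides of the arcuate nucleus, none passed the test, and the spread between animals of 1 group covered a wide range. Pomc, the precursor of the appetite-curbing melanocortins, had normalized counts of 6926, 6067, 100, 57.1, 246, 120, 108 and 86.7 in saline replicates 1 to 8. The RYGB-treated animals ran from 43.3 to 27787 with a median of 1863. Saline replicates 1 and 2 of batch A were within the upper part of this range, and the other 6 saline-treated animals were near its lower end. The log2 fold change was 1.71 ± 1.12 (SE, adjusted p = 1, edgeR). In batch A alone it was -0.092 and in batch B alone 4.91. The 3 RYGB-treated animals of batch B (2743, 2399 and 6086) did not overlap with the 5 saline-treated animals (57.1 to 246). For Agrp, which drives feeding by blocking melanocortin receptors, saline-treated animals had 228, 277, 14.6, 13.1, 3.52, 12.3, 18.8 and 49.6. The RYGB-treated group ran from 6.97 to 518, and the log2 fold change was 0.99 ± 0.78 (-0.44 in batch A, 3.35 in batch B). Cartpt, the anorexigenic CART peptide made beside Pomc, ran from 184 to 6953 in saline-treated and from 614 to 6304 in RYGB-treated animals (log2 fold change 0.60 ± 0.54). Npy, the orexigenic peptide made beside Agrp, ran from 272 to 1191 and from 179 to 739 (log2 fold change -0.32 ± 0.40). Over these 4 genes the median log2 fold change was 0.79, against -0.00105 over all genes tested. Within batch A this median was -0.32, within batch B 2.71, and 3 of the 4 genes did not overlap between the groups of batch B, all higher after RYGB. In batch B, 7.43% of all genes tested were higher in every RYGB-treated than in every saline-treated animal, and 6.52% were lower.

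Marker genes of hypothalamic neurons and of the pituitary, which lies below the hypothalamus and also makes Pomc, moved with these peptides. The 19 markers of hypothalamic neurons include Pomc, Agrp, Hcrt, Pmch, Avp and Oxt, so their values are partly those of the peptides themselves. Their median log2 fold changes were -0.21 in batch A and 2.40 in batch B. In batch B, 11 of the 19 did not overlap, all higher after RYGB. The 13 pituitary markers tested had medians of -0.32 and 4.97, and 5 of them did not overlap in batch B in the same direction. Of all genes tested, 7.43% did not overlap in batch B with higher values after RYGB, and 6.52% with lower values. Cga, the alpha subunit of the glycoprotein hormones, was at 0 to 2.38 normalized counts in the 5 saline-treated and at 233 to 9436 in the 3 RYGB-treated animals of batch B. In batch A it ran from 7.8 to 10501 in saline-treated and from 1.78 to 10517 in RYGB-treated animals. Tshb, the beta subunit of thyrotropin, was at 0 in 4 of the 5 saline-treated animals of batch B and at 35.9 to 3478 in the RYGB-treated animals. Prl and Fshb, which code for prolactin and a subunit of follicle-stimulating hormone, were at 0 in all 5 of these saline-treated animals. In the 3 RYGB-treated animals of batch B, Prl was at 0 in 1 and Fshb in 2. Gh1, Lhb and Trhr overlapped between the groups of this batch. Pou1f1, Gnrhr and Ghrhr reached 5.51, 14.1 and 4.7 in its saline-treated animals, against 2.11, 2.11 and 0 in its RYGB-treated animals. Between 5 and 8 of the 14 pituitary markers listed were at 0 in the saline-treated animals of batch B, against 3 or 4 in the RYGB-treated animals. The summed pituitary level overlapped between the groups, from 431 to 1088 CPM in RYGB-treated and from 402 to 1148 CPM in saline-treated animals, and Chgb, a granule protein shared by many neurons, gave 9837 to 20856 normalized counts of it in each animal. RYGB replicate 3 had the highest level of both the arcuate (1315 CPM) and the pituitary list (1088 CPM) in its group. The part of hypothalamic and pituitary tissue in the peptide values was not tested.

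The lateral hypothalamic peptides followed the same animals. Hcrt was at 1380 and 2349 in saline replicates 1 and 2, at 0.975 and 1.19 in saline replicates 3 and 4, and at 186, 62.7, 52.9 and 42.7 in saline replicates 5 to 8. RYGB-treated animals ran from 136 to 6359 with a median of 2597, so that 8 of 14 lay above every saline-treated animal. The log2 fold change was 2.54 ± 1.20 (SE, adjusted p = 1, edgeR), 1.02 in batch A and 5.50 in batch B. Pmch was at 15449 and 16936 in saline replicates 1 and 2 and no more than 3354 in the rest of the saline group. It ran from 3011 to 66541 in the RYGB group, and the log2 fold change was 2.24 ± 1.16 (adjusted p = 1). Of the 7 genes of the lateral hypothalamic list, 1 was higher (Hcrt) and 1 lower (Lhx9) at an unadjusted p under 0.05. Of all genes tested, 1.13% were higher and 0.951% lower. Lhx9 was highest in saline replicates 5 and 7, as given above with the habenula genes. The median log2 fold change of the list was 0.20.

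**Figure D3:**
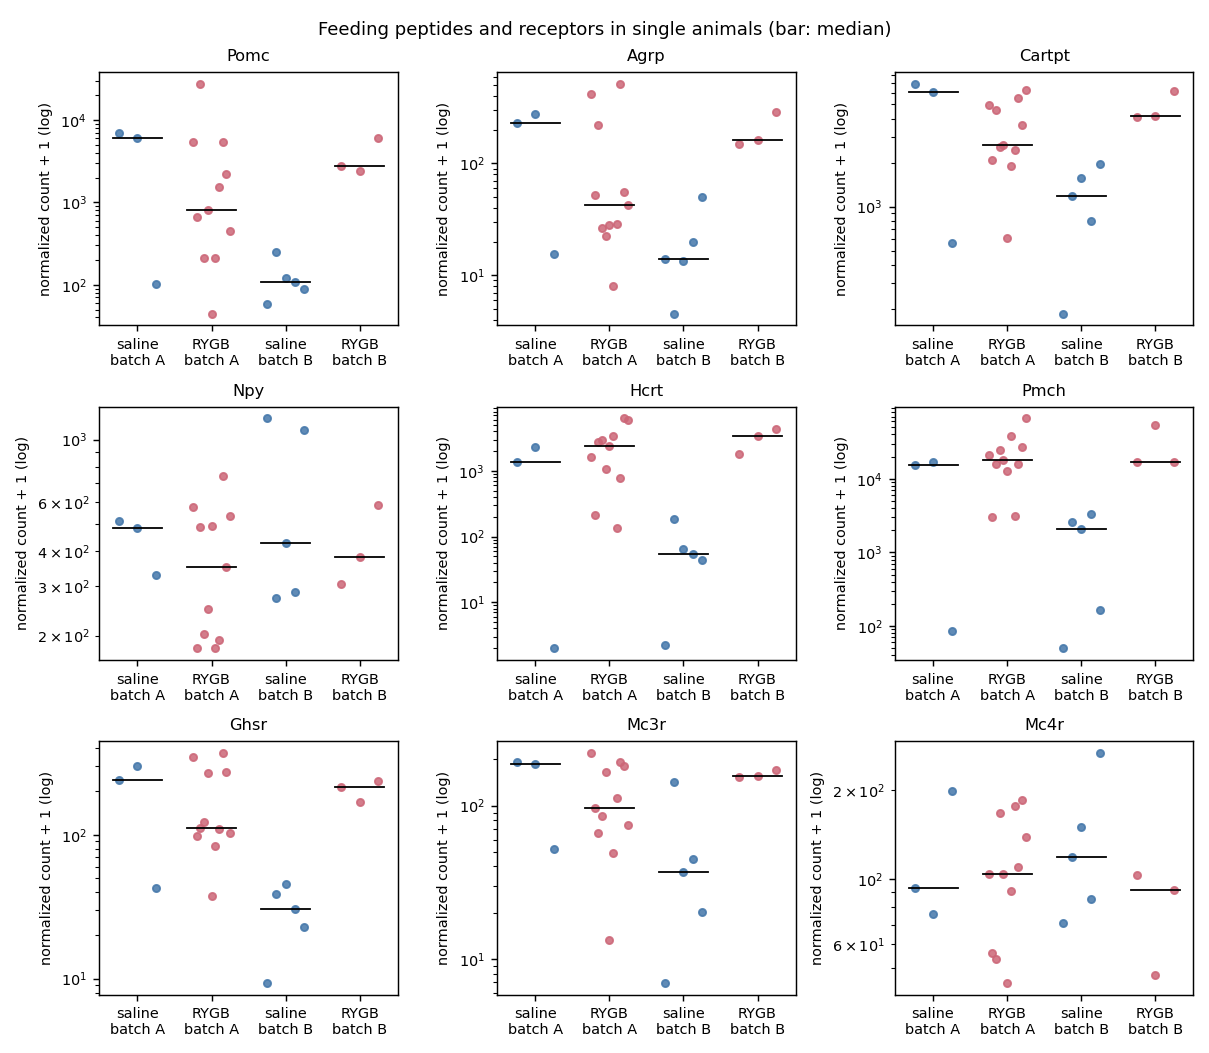
Normalized counts plus 1 (log axis) of feeding peptides and of the receptors Ghsr, Mc3r and Mc4r in single animals, by group and batch, with medians as black bars. For Pomc, Hcrt, Pmch and Ghsr, saline-treated animals of batch B lie below all 3 RYGB-treated animals of that batch, while the groups of batch A overlap.

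Peptides of the paraventricular and supraoptic nuclei differed less between the groups than between animals. Avp, the antidiuretic hormone vasopressin, ran from 30.9 to 68247 in saline-treated and from 437 to 73220 in RYGB-treated animals (log2 fold change 0.39 ± 1.15, SE). Oxt, the precursor of oxytocin, ran from 38 to 78863 and from 1466 to 39582 (-0.15 ± 1.05). For both, the lowest value was that of saline replicate 4 and the highest saline value that of saline replicate 6. Trh and Crh, which control the thyroid and adrenal axes, had log2 fold changes of 0.38 ± 0.67 and 0.097 ± 0.37. Nos1, the neuronal nitric oxide synthase, and Nts, the neuropeptide neurotensin, had the smallest p of this list of 15 genes. Their log2 fold changes were 0.65 ± 0.42 and -0.51 ± 0.32, both with an adjusted p of 1 (edgeR). The list had 0 genes past an unadjusted p of 0.05 and a median of 0.097.

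Receptors for feeding hormones showed no gene past the adjusted threshold among 31 tested. At an unadjusted p under 0.05, 1 was higher and 0 were lower, against 1.13% and 0.951% of all genes tested. This was Igf1r, the receptor of insulin-like growth factor, with a log2 fold change of 0.24 ± 0.11 (SE, adjusted p = 1, edgeR). In total 23 of the 31 had a positive log2 fold change, as did 10857 of the 21871 genes tested. The median of the 31 was 0.12. Ghsr, the ghrelin receptor of Agrp neurons, was at 239 and 301 in saline replicates 1 and 2 and at most 44.8 in the others. It ran from 36.7 to 370 in RYGB-treated animals (log2 fold change 0.99 ± 0.57). As for Pomc, it was not higher in batch A (-0.16) and did not overlap in batch B (169 to 234 against 8.32 to 44.8). In 7 of the 31 receptors the groups of batch B did not overlap, all higher after RYGB, and in 0 they did so in the other direction, against 7.43% and 6.52% of all genes tested.

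A group of 15 genes was picked by the study for differences between RYGB- and sham-treated animals, so its members were chosen on the RYGB-treated animals used here. The study reported Sdhb, Sdhc and Sdhd as lower and the others as higher after RYGB, Lepr also by quantitative PCR. Set against saline-treated animals, none passed the adjusted threshold. At an unadjusted p under 0.05, 1.13% of all genes tested were higher and 0.951% lower, and 1 of the 15 passed. This was Glra3, an inhibitory glycine receptor subunit, at 30.1, 82.8, 32.2, 7.13, 11.7, 11.2, 9.41 and 11 in saline replicates 1 to 8. Its RYGB values ran from 9.42 to 109, and the log2 fold change was 1.02 ± 0.46 (SE, adjusted p = 1, edgeR). The related subunits Glra1 and Glra4 had 0.74 ± 0.46 and 0.13 ± 0.34. Among the serotonin receptors, the log2 fold changes were 0.55 ± 0.38 for Htr1b, 0.44 ± 0.44 for Htr2a and 0.099 ± 0.28 for Htr5a. The melanocortin receptors Mc3r and Mc4r had 0.50 ± 0.61 and -0.21 ± 0.35, and the pancreatic polypeptide receptor Npy4r had 0.20 ± 0.58. For the prolactin receptor Prlr and the insulin receptor Insr they were 0.38 ± 0.49 and 0.25 ± 0.25. Lepr, the leptin receptor, ran from 71.7 to 264 in saline-treated and from 88.9 to 762 in RYGB-treated animals, with a log2 fold change of 0.11 ± 0.41 and a 95% interval from -0.69 to 0.91. Sdhb, Sdhc and Sdhd, subunits of succinate dehydrogenase in the respiratory chain, had -0.076 ± 0.091, -0.069 ± 0.086 and -0.044 ± 0.11.

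The 15 genes were also set against the 11 sham-treated animals, the contrast on which they had been picked, so their values there are a description only. In that contrast 518 of all genes tested (2.37%) passed the adjusted threshold and the fold threshold, 437 higher and 81 lower after RYGB. Of the 15 genes, 4 passed both thresholds against sham, all higher after RYGB. Without the fold threshold, 6 of the 15 had an adjusted p under 0.05, all higher after RYGB, and 9 did not. At that threshold, 2853 of the 21871 genes tested passed. The median absolute log2 fold change of all genes was 0.219 against sham and 0.108 against saline. The log2 fold changes against sham were 2.79 for Glra3 (adjusted p = 0.000654, edgeR), 1.74 for Htr2a (adjusted p = 0.00579), 1.39 for Lepr (adjusted p = 0.0115), 0.97 for Insr (adjusted p = 0.00479), 1.47 for Prlr (adjusted p = 0.0439) and 0.77 for Htr5a (adjusted p = 0.0352). The first 4 had 1.02, 0.44, 0.11 and 0.25 against saline. The genes that did not pass against sham were Htr1b (0.83), Glra1 (1.06), Glra4 (0.23), Npy4r (1.45), Mc3r (1.004), Mc4r (-0.75), Sdhb (-0.22), Sdhc (-0.19) and Sdhd (-0.25), with adjusted p between 0.0658 and 0.652 (edgeR). The study compared normalized counts of genes taken from its enriched pathways. Its measure and threshold therefore differ from the p adjusted over all genes that is used here. Among the genes that did not pass, only Mc4r had a sign opposite to the direction the study reported. Sdhb, Sdhc and Sdhd had the reported direction, with SE of 0.082, 0.077 and 0.096 against sham. Both comparisons share the RYGB-treated animals, so the test of the difference between them is that of sham- against saline-treated animals. In it the log2 fold changes of the first 4 genes were -1.77 for Glra3 (adjusted p = 0.215), -1.30 for Htr2a (adjusted p = 0.242), -1.28 for Lepr (adjusted p = 0.232) and -0.72 for Insr (adjusted p = 0.247). Over all genes, 2 (0.00914%) passed the threshold between sham- and saline-treated animals, Scube1 and Nwd2, both lower in the sham group. At an unadjusted p under 0.05 there were 2812 genes (12.9%). Scube1, a secreted protein of the cell surface, fell by 1.88 on the log2 scale (adjusted p = 0.00167). Its values in saline-treated animals ran from 37 to 764 and in RYGB-treated animals from 63.5 to 270, with a log2 fold change of -0.93 ± 0.30 for RYGB against saline (adjusted p = 1).

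**Figure D4:**
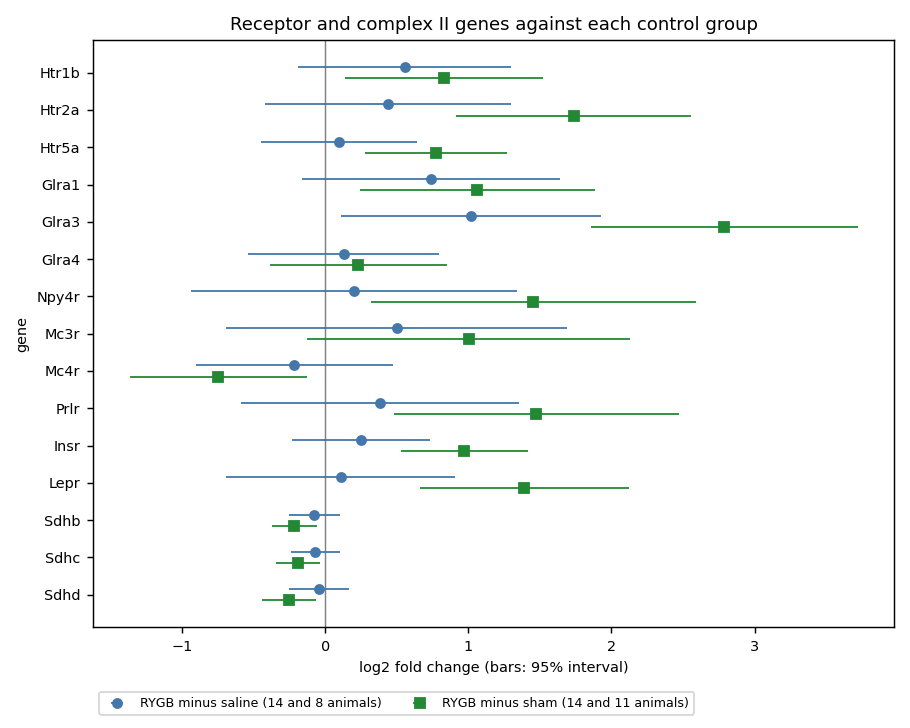
Log2 fold changes of the 15 genes picked by the study, as RYGB minus saline (blue circles, 14 and 8 animals) and RYGB minus sham (green squares, 14 and 11 animals), with bars of 95% intervals. Against saline, only the interval of Glra3 lies to the right of 0, and none of the 15 passed the adjusted threshold.

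Signalling downstream of leptin and insulin was measured with 24 JAK-STAT and 23 PI3K-Akt genes. No JAK-STAT gene passed an unadjusted p of 0.05, and the median log2 fold change was 0.068. Stat5a and Stat5b, transcription factors of prolactin and growth hormone signalling, came closest with 0.33 ± 0.16 and 0.38 ± 0.21 (SE, both adjusted p = 1, edgeR). Of the PI3K-Akt genes, Igf1r alone passed an unadjusted p of 0.05 (1.13% of all genes tested were higher and 0.951% lower). The median was 0.056, and Pik3r3, a regulatory subunit of the kinase, had 0.25 ± 0.13. The 10 AMPK genes, which sense low cellular energy, had a median of -0.017. Their smallest p belonged to Prkag1 and Stk11, a subunit and an upstream kinase, at -0.089 ± 0.057 and -0.084 ± 0.065.

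Genes of mitochondrial respiration had small negative differences. Of 38 complex I subunits, 0 had a positive log2 fold change and 0 passed an unadjusted p of 0.05, and the median was -0.097. The subunits with the smallest p, Ndufs3 and Ndufa9, had -0.15 ± 0.12 and -0.11 ± 0.094 (SE, both adjusted p = 1, edgeR). Of 40 subunits of complexes II to V, 1 had a positive log2 fold change, and the median was -0.10. Cyc1 of complex III and Atp5e of the ATP synthase had -0.14 ± 0.10 and -0.22 ± 0.16. The median log2 fold change was 0.094 for complex I and 0.12 for complexes II to V in batch A, against -0.30 and -0.37 in batch B. In batch B, the 3 RYGB-treated animals lay below the 5 saline-treated animals for 22 of the 38 and 32 of the 40 genes, against 6.52% of all genes tested. The share of counts on mitochondrial genes separated the same animals, at 0.880% to 1.20% in the RYGB-treated and 1.28% to 2.73% in the saline-treated animals of batch B, and its part in these values was not tested. Cytosolic ribosomal proteins (78 genes) had medians of -0.033 over both batches, 0.12 in batch A and -0.29 in batch B. Rplp1 and Rps27a had -0.13 ± 0.16 and -0.11 ± 0.14. Of the 31 proteasome subunits, 0 passed an unadjusted p of 0.05, with Psmc3 and Psmd8 at -0.093 ± 0.087 and -0.089 ± 0.088.

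RYGB replicate 11 stood apart in these lists. Its ribosomal protein genes summed to 32190 CPM, against 14221 to 20644 CPM in the other RYGB-treated animals and 16126 to 24505 CPM in saline-treated animals. Its complex I genes summed to 6416 CPM, the highest of the 22 libraries. The same library had the lowest normalized counts of all 14 RYGB-treated animals for Insr (141), Stat5b (309) and Htr5a (32.3). Without it, 0 genes were higher and 0 lower at the thresholds used, since the adjusted p of Gpr151 was then 0.0742 (edgeR).

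In lipid metabolism, 0 of 32 genes of cholesterol and fatty acid synthesis and 0 of 23 genes of fatty acid oxidation and ketone use passed an unadjusted p of 0.05. Fads2 and Scd4, desaturases of fatty acids, had log2 fold changes of 0.23 ± 0.17 and 0.32 ± 0.21 (SE). Cpt1a, which admits fatty acids to mitochondria, and Pdk4, which spares glucose during fasting, had 0.23 ± 0.12 and 0.48 ± 0.29 (all adjusted p = 1, edgeR). Of the 18 glucocorticoid-responsive genes, 15 had a positive log2 fold change and 0 passed an unadjusted p of 0.05, with a median of 0.14. The batches had medians of 0.64 (A) and -0.28 (B). Hif3a, a hypoxia-related factor of this list, had 0.75 ± 0.48.

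Inflammation is a recurring theme in the hypothalamus of diet-induced obese animals. Of 23 inflammatory genes tested, 3 were higher and 0 lower at an unadjusted p under 0.05 (1.13% and 0.951% of all genes tested), and none passed the adjusted threshold. Ccl2, a chemokine that attracts monocytes, ran from 0 to 14.1 in saline-treated and from 2.67 to 29.3 in RYGB-treated animals, both low counts, with a log2 fold change of 1.66 ± 0.59 (SE, adjusted p = 1, edgeR). Tlr4, the receptor of bacterial lipopolysaccharide, ran from 19.3 to 72.8 and from 27.1 to 104 (0.59 ± 0.27). Among 21 genes of endoplasmic reticulum stress, Herpud1, which helps to degrade misfolded proteins, was the gene past an unadjusted p of 0.05 (0.21 ± 0.097), and Ern1, a sensor of such stress, had 0.30 ± 0.17. Of 19 circadian clock genes, Nr1d1, a repressor of the clock loop, passed an unadjusted p of 0.05. It ran from 1657 to 2389 in saline-treated and from 1762 to 3483 in RYGB-treated animals, above the saline median in 13 of 14, and had 0.29 ± 0.11 (adjusted p = 1). Its paralogue Nr1d2 had 0.16 ± 0.095. The immediate early genes, switched on by neuronal activity, had medians of -0.10 over both batches, 0.98 in batch A and -1.47 in batch B, with 0 of 18 past an unadjusted p of 0.05. The markers of cortex, hippocampus and amygdala had medians of -0.28, 0.89 and -1.82 in the same order. RYGB replicate 6 (1355 CPM) and saline replicate 4 (1248 CPM) had the highest summed level of both lists, and their part in these values was not tested. Egr4 and Nr4a2 had -0.54 ± 0.61 and -0.50 ± 0.44, and -0.015 and -0.090 without saline replicate 4. Without RYGB replicate 6, Egr4 had -0.89. The 28 collagen genes had a median of 0.23, with Col8a2 (1.30 ± 0.63, an unadjusted p under 0.05) and Col8a1 (1.02 ± 0.54) leading, both highest in RYGB replicate 3 (2322 and 259), which held the most meningeal RNA. In the thyroid hormone axis, Ttr, which carries thyroxine and is made in choroid plexus, reached 92389 in RYGB replicate 6 and 14157 in saline replicate 5. Its log2 fold change was 2.08 ± 1.39 and became -0.33 without RYGB replicate 6. Slco1c1, a thyroid hormone transporter of the blood-brain barrier, had -0.14 ± 0.11.

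**Figure D5:**
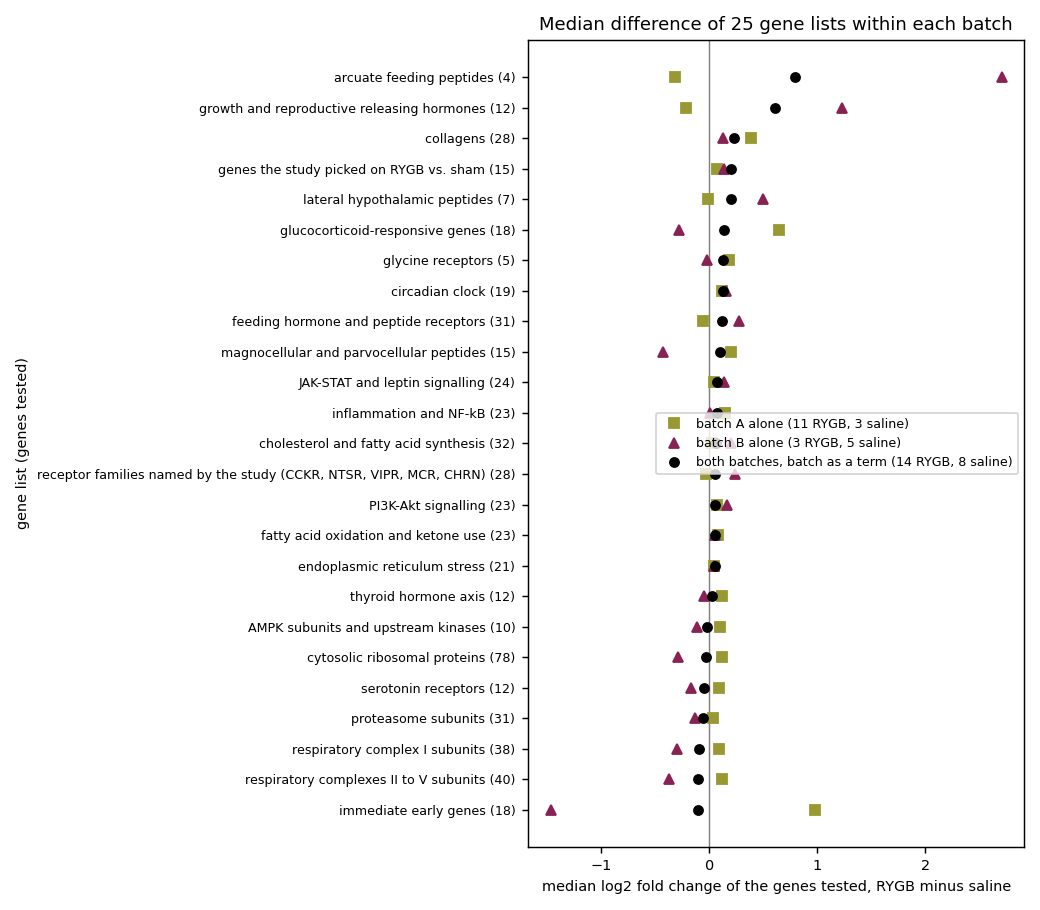
Median log2 fold change (RYGB minus saline) of each of the 25 gene lists, over both batches with batch as a term (black circles), in batch A (squares) and in batch B (triangles). For the arcuate peptides (-0.32 and 2.71) and the immediate early genes (0.98 and -1.47) the batches lie on opposite sides of 0.

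The remaining genes with the smallest p at a mean of 50 or more normalized counts did not pass the adjusted threshold. Among those higher after RYGB, Pla2g3, a secreted phospholipase, ran from 41.3 to 102 in saline-treated and from 57.3 to 868 in RYGB-treated animals. Of these, 9 of 14 lay above every saline-treated animal (log2 fold change 1.33 ± 0.39, SE, adjusted p = 1, edgeR). Acer2, a ceramidase, ran from 334 to 510 and from 355 to 952, with 11 of 14 animals above every saline-treated animal (0.60 ± 0.19). Heph, a ferroxidase of iron export, had 0.62 ± 0.22, and Slco4a1, an organic anion transporter, had 0.84 ± 0.28. Among those lower, Adtrp ran from 64.9 to 289 in saline-treated and from 39.1 to 122 in RYGB-treated animals (-0.69 ± 0.19). Prkcq, a protein kinase C, had -0.58 ± 0.19, with its highest value in saline replicate 7 (2249). Syt15, a synaptotagmin, had -1.81 ± 0.58, with 212 and 527 in saline replicates 5 and 7 and no more than 32.6 in the rest of that group. Cdhr1, a cadherin-related gene, had -1.15 ± 0.37, with 3075 in saline replicate 4.

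Not a single gene was higher in every RYGB-treated than in every saline-treated animal (0% of the genes tested), and 1 was lower (0.00457%). This gene, LOC108349154, ran from 1.78 to 10.6 normalized counts in the RYGB and from 12.8 to 35.9 in the saline group, with a log2 fold change of -1.51 ± 0.40 (SE, adjusted p = 1, edgeR). It was named after its values were seen, as were the genes whose groups did not overlap within batch A nor within batch B, in the same direction. These were 1 higher (0.00457% of the genes tested) and 3 lower (0.0137%), LOC108349154 among them. Crygs, which codes for a lens crystallin, was higher (5.01 to 12.4 against 0 to 5.85). LOC102548146 and the microRNA gene Mir219-2 were lower (0 to 9.59 against 7.03 to 20, and 0 to 13 against 9.41 to 28.3). All 4 genes had at most 35.9 normalized counts in each animal, and none passed the adjusted threshold.

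The 2 batches were also compared directly. The difference between the effect in batch B and that in batch A passed the threshold in 0 of 22207 genes (0%), with a smallest adjusted p of 0.366 (edgeR). At an unadjusted p under 0.05 there were 1734 genes (7.81%). In batch A alone, 0 of 21775 genes passed (0%), and 252 (1.16%) had an unadjusted p under 0.05. In batch B alone, with 3 and 5 animals, 4 of 20628 genes (0.0194%) were upregulated after RYGB, and 3275 (15.9%) had an unadjusted p under 0.05. These were Ptch1, the receptor of hedgehog ligands (1.42, adjusted p = 0.0355), Trpm3, a cation channel (1.28, adjusted p = 0.0355), Nwd1 (1.22, adjusted p = 0.0432) and Acot11, an acyl-CoA thioesterase (1.63, adjusted p = 0.0457). Ptch1 was at 436 to 620 in the 5 saline-treated animals and at 1286 to 1565 in the 3 RYGB-treated animals of batch B. In batch A it was at 1208, 1669 and 1411 in saline-treated animals and at 315 to 2532 in RYGB-treated animals, with the lowest value in RYGB replicate 11. The log2 fold changes in batch A were 0.015, 0.043, 0.11 and -0.064 in the same order, and over both batches 0.62, 0.53, 0.56 and 0.63.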

How the data were processed

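Poly-A RNA of whole hypothalamus was read in 1 library per animal. The authors made stranded libraries, trimmed reads with cutadapt, mapped them to the rat genome Rnor_6.0 with STAR 2.7.2b and counted them per gene with featureCounts 1.6.4. The deposited values are estimated counts of each gene without normalization or logarithm, and 30.5% of the nonzero values of the 22 libraries were not whole (tolerance 1e-06). They were rounded to whole counts, which changed no library total by over 0.00104%. No 2 of the 22 libraries were identical.

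Genes were kept by filterByExpr (minimum count 10, minimum total 15), scaled by TMM and tested in R 4.3.3 with the robust quasi-likelihood test of edgeR 4.0.16, with group and batch as terms and all 65 libraries of 8 groups in 1 fit. A call needed p under 0.05 after Benjamini-Hochberg adjustment and a log2 fold change beyond 1 in either direction. Errors of log2 fold changes are SE, taken as the absolute log2 fold change divided by the square root of the F statistic of the test. Intervals of 95% used the normal distribution, so they can differ slightly from the p-values. Normalized counts used DESeq2 1.42.0 size factors, and list levels are sums of these in CPM (counts per 1000000). The batches were compared by an interaction of group and batch. The scripts were tested on simulated data without batch differences, with calls at an adjusted p under 0.05 and no fold threshold. There edgeR made 6 false calls among 21871 genes beside 200 genes changed by 2 on the log2 scale.

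Genes named were those past the adjusted threshold, the 8 higher and 8 lower with the smallest p (mean of at least 50 normalized counts, with a gene name), 15 genes picked by the study with 4 arcuate peptides, 2 genes of smallest p per list, and up to 5 per direction called between batches or between sham- and saline-treated animals. Members and lists were chosen with earlier results of these data known, and further genes were named after their values were seen. Alternatives were another scaling, no filter, no rounding, no batch term, single batches, fewer libraries, a replicate block and DESeq2. Where a symbol of a list stood for several genes, the gene with most counts was used. Same-numbered RYGB and saline libraries did not deviate together (r from -0.408 to 0.358 over 8 numbers), so the numbers were not used as pairs. Animals were separate, and p-values measure the spread between them.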

Additional observations from a re-analysis of the deposited data

Results flagged for a closer look

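For each named gene the 8 saline-treated animals were checked for 1 value far from the others, by the gap to the nearest value as a share of the range (Dixon's 95% critical value). This was met by 14 of 91 genes. Chance flags about 1 in 20 groups of normally distributed values, a rate that does not hold for these genes, since their counts are skewed, many were chosen for large values and they share the same animals. Saline replicate 7 was highest for Pou4f1 (810, next 353), Prkcq (2249, next 1261), Syt15 (527, next 212) and Pcp2 (20, next 7.8). Saline replicate 4 was highest for Slc17a7 (28335, next 2364), Cdhr1 (3075, next 874) and Htr2a (182, next 73.4). Saline replicate 6 was highest for Avp (68247, next 14980) and Oxt (78863, next 15936). Saline replicate 1 was highest for Slco4a1 (203, next 110) and Col8a1 (78.7, next 31.6). Single genes set apart saline replicate 5 (Ttr, 14157, next 1893), saline replicate 2 (Glra3, 82.8, next 32.2) and saline replicate 8 (En1, 17.9, next 9.39). All values are normalized counts, and the cause was not tested.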

How the results depend on the processing

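The count of 0 upregulated genes became 10 with DESeq2 and 4 in batch B alone. The count of 1 downregulated gene became 4 with DESeq2, 6 without the batch term, and 0 without the filter on low counts, with only the 22 libraries, in batch A alone, in batch B alone, with the replicate block, and without saline replicates 5 and 7. It ran from 0 to 2 when single animals were left out, the 2 being Gpr151 and Nwd2 (adjusted p of Nwd2 0.0107 to 0.0233, edgeR, without saline replicate 1, 2 or 3). Of the 14 DESeq2 calls, 6 with 0 counts in every saline-treated animal and counts in 1 to 5 RYGB-treated animals were not in the edgeR test. The others were Slc6a3, Pnmt, Pcp2 and LOC108350063, all higher, and Chrna3, Chrnb4, Nwd2 and Gpr151, all lower. Calls between sham- and saline-treated animals became 29 with DESeq2 and 0 with only these 19 libraries. The replicate block, whose numbers do not mark pairs, gave Gpr151 a log2 fold change of -3.26 (adjusted p = 1). Without saline replicates 3 and 4 together, chosen after seeing the data, Gpr151 was at -7.80 (adjusted p = 0.00181), and without RYGB replicate 6 and saline replicate 4 at -7.17 (adjusted p = 0.0218).

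Log2 fold changes had the other sign in batch A alone for 32 of 90 genes: Nwd2 0.33, Chrna3 0.72, Pou4f1 1.53, Htr5b 0.47, Syt15 0.41, Acot11 -0.064, Slc17a7 2.30, Stat5b -0.059, Ghsr -0.16, Pomc -0.092, Scd4 -0.046, Fads2 -0.042, Cyc1 0.062, Atp5e 0.076, Stk11 0.066, Agrp -0.44, Ndufa9 0.065, Ndufs3 0.076, Nr4a2 0.76, Cartpt -0.42, Psmc3 0.064, Psmd8 0.10, Insr -0.025, Egr4 0.83, Rplp1 0.017, Mc3r -0.34, Sdhc 0.020, Prlr -0.30, Rps27a 0.065, Sdhd 0.16, Npy4r -0.046 and Oxt 0.96. In batch B alone 6 of 88 did: Pdk4 -0.11, Ttr -0.24, Slco1c1 0.055, Glra4 -0.26, Avp -0.72 and Lepr -0.36. With the replicate block 8 did: Slc17a7 0.047, Pomc -0.81, Agrp -0.62, Cartpt -0.28, Egr4 0.30, Mc3r -0.19, Avp -0.28 and Crh -0.088. Without saline replicates 5 and 7 these were Chrna3 0.60, Pou4f1 2.27 and Syt15 0.50. With only the 22 libraries they were Nr4a2 0.10, Glra4 -0.049 and Oxt 0.067. Without saline replicates 3 and 4 they were Npy4r -0.10 and Avp -0.095, without RYGB replicate 6 and saline replicate 4 Ttr -0.49, and without the batch term Crh -0.31. Leaving out 1 animal moved Ttr from -0.33 to 3.67, Mc4r from -0.31 to 0.0038, Lepr from -0.0998 to 0.35, Sdhd from -0.10 to 0.0082, Crh from -0.057 to 0.38 and Oxt from -0.39 to 0.68. No sign of the named genes differed with another scaling, without rounding, without robust dispersion, without the filter or with DESeq2, and the cause of these differences was not tested.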
